A study of Mus musculus with 23 samples.

Results

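The replication-dependent histone genes were examined as RNA targets of CTCF. They were taken as the protein-coding genes of the GENCODE M21 mouse annotation (build mm10) whose symbol opens with Hist, a cluster number from 1 to 4 and a small h. This gave 67 genes of 55413 annotated genes, and of 21938 protein-coding genes. By type they comprised 6 linker histone H1 genes, 18 H2A genes, 18 H2B genes, 12 H3 genes and 13 H4 genes. By cluster, 54 Hist1 genes lay on chromosome 13, 10 Hist2 genes on chromosome 3, 2 Hist3 genes on chromosome 11 and the single Hist4 gene on chromosome 6. The assay was iCLIP2, in which UV light crosslinks a protein to the RNA it touches, the protein is immunoprecipitated and the crosslinked base is read from the point where reverse transcription stopped. All 23 libraries came from the mouse E14 embryonic stem cell (ESC) background in which both endogenous CTCF copies carry mAID-eGFP and OsTir1(F74G) sits at Rosa26, so that 5-Ph-IAA degrades the endogenous protein, and in which a doxycycline-inducible Flag-Halo CTCF at the Tigre locus replaces it. Every group received 1 µM 5-Ph-IAA and 1 µg/mL doxycycline for 24 hours, and each rescue line was 1 clone. Rescue was with wild-type CTCF (WT) or with ΔZF1, a form that lacks part of zinc finger 1. Cells were ESCs or neural progenitor cells (NPCs) after 2 days of differentiation. Nuclei were isolated and CTCF was recovered with anti-Flag beads. UV-crosslinked groups received 400 mJ/cm2 at 254 nm. The non-crosslinked (noXL) controls were made from the WT rescue in both cell types, so ΔZF1 had no control of its own without UV. Groups held 4 libraries each, except NPC-WT with 3.

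Replication-dependent histone genes supply the core and linker histones that package newly copied DNA, and their RNA accumulates mainly in S phase. They have no introns, and their messages end just after a conserved stem-loop rather than in a poly(A) tail. The stem-loop is bound by Slbp, and U7 small nuclear ribonucleoprotein directs the cut behind it. The genes exist in many near-identical copies that encode the same or nearly the same protein. CTCF is a zinc finger protein that binds DNA at chromatin loop anchors and insulators, and zinc finger 1 is one of its RNA-contacting regions.

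The stem-loop is shown because it defines the message end against which sites were placed. It was searched as the canonical histone stem-loop, with a stem of 6 base pairs and a loop of 4 bases, on the strand of the message within 200 nt after the stop codon. It was found in 63 of the 65 genes with a single-exon coding message, and in 8 of 21685 windows of the same length after the stop codon of other protein-coding genes (0.0369%). Those 8 included H2afx, whose message can also end at a stem-loop. The stem-loop began 22 to 59 nt after the stop codon, with a median of 31 nt. Its most frequent forms are printed 5′ to 3′ from mm10 with the loop in capitals (T stands for U).
Form of 39 genes of types H1, H2A, H2B and H3: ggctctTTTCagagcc
Form of 9 genes of the same 4 types: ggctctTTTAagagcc
Form of 8 H4 genes: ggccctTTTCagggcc
Form of 2 further H4 genes: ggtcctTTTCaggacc
Hist1h2bc and Hist1h2be have no single-exon coding message in the annotation, and Hist1h2an and Hist2h2be lacked the motif in this window. Slbp contacts the printed element, so the distances below run from the stop codon to this landmark.

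A site was a single base called by PureCLIP on the merged libraries of a group, so there is 1 list per group and no replicate value. The 6 lists held 107227 to 451137 sites on the nuclear chromosomes. No test of significance is possible, read depth behind the lists is unknown, and all intervals are 95% Wilson intervals that cover counting error only. Of 5 stem cell markers, Esrrb (158 to 460 sites in the ESC lists) and Klf4 (5 to 66) had 0 sites in the 3 NPC lists and Tfcp2l1 (88 to 343) had at most 5. Zfp42 (18 to 164 in ESCs) and Nanog (21 to 85) kept 10 to 11 and 7 to 14 in NPCs. Nes, an NPC marker, had 0 to 2 sites in the ESC lists and 14 to 32 in those of NPCs. Sox1 and Pax6 had 2 and 1 sites in NPC-noXL alone, and Hes5 and Zic1 had none in any list, so of the 5 NPC markers Nes alone had sites in the UV lists of NPCs.

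Histone genes held a larger share of the sites in the WT lists than in the ΔZF1 and no-UV lists. Over the 67 genes, 453 sites were called in ESC-WT, 115 with the ΔZF1 rescue in ESCs and 83 without UV. In NPCs there were 269 sites for WT, 58 for ΔZF1 and 43 without UV. These were 0.106% of all sites in genes in ESC-WT (interval 0.0963% to 0.116%) and 0.117% in NPC-WT (0.104% to 0.132%). For ESC-ΔZF1 the share was 0.0528% (0.0440% to 0.0634%), beside 0.0550% (0.0444% to 0.0682%) without UV. In NPCs it was 0.0379% in ΔZF1 (0.0293% to 0.0489%) and 0.0422% in noXL (0.0313% to 0.0568%). In both cell types the WT interval lay above the other intervals, and the ΔZF1 and noXL intervals overlapped. In these bulk lists, fewer cells in S phase and less histone RNA per cell cannot be told apart from fewer contacts per RNA.

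**Figure D1:**
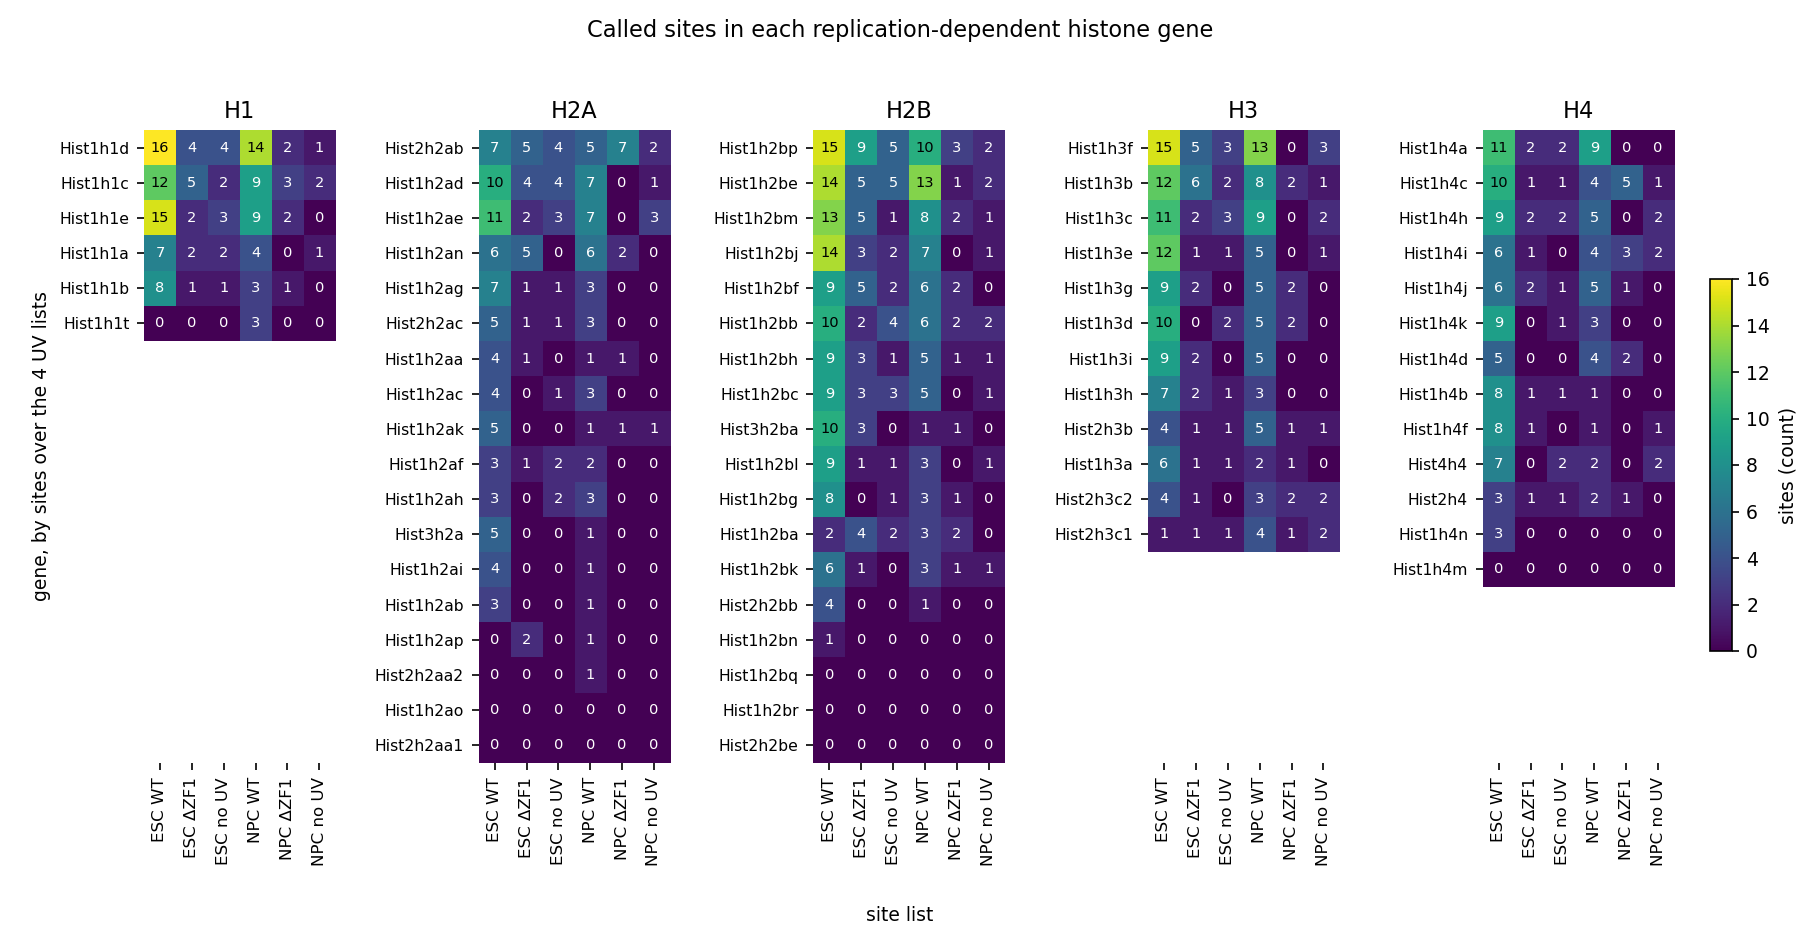
Called sites (count, colour and printed number) in each of the 67 genes (rows, by histone type and then by sites over the 4 UV lists) in the 6 lists (columns). No gene exceeded 16 sites, and the ESC-WT column is the densest, with 44 genes at 5 sites or more against 9 in ESC-ΔZF1.

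The sites were spread thinly over many genes and not held by a few. In ESC-WT, 58 of the 67 genes had a site, 44 had 5 or more and the highest gene had 16. The gene with the most sites over the 4 UV lists, the H2B gene Hist1h2bp, held 4.13% of them. In ESC-ΔZF1, 45 genes had a site and 9 had 5 or more. Among the NPC lists 59 genes had a site with WT, 30 with ΔZF1 and 28 without UV. No site was called in any list in 6 genes, namely Hist1h2ao, Hist1h2bq, Hist1h2br, Hist1h4m, Hist2h2aa1 and Hist2h2be.

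The copies themselves limit what can be counted. Of all positions in the 67 gene bodies, 71.4% were followed by 31 bases that occur once in mm10, and within coding sequence 34.4% were. No such position existed in 5 genes (Hist1h2ao, Hist1h2ap, Hist1h2bq, Hist1h2br and Hist2h2aa2). These held 0 ESC-WT, 2 ESC-ΔZF1 and 2 NPC-WT sites in 8864 nt, all in Hist1h2ap and Hist2h2aa2, while the 15 genes with some but under 25% unique positions held 77 in 6713 nt. At the called sites, the following 31 bases were unique for 59.2% of ESC-WT and 61.3% of NPC-WT histone sites, against 94.8% and 95.4% of other genic sites. How the aligner treated reads that fit several copies is not given in the sources used here. A count in 1 gene of a near-identical set is therefore uncertain, and the sums over types are the firmer quantity.

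Relative to the noXL controls, the histone genes as a group had more WT sites than genes at large. After scaling to the genic sites of each list and adding 1 site to each count, the summed log2 ratio of ESC-WT over ESC-noXL was 0.93 (0.60 to 1.28). In NPCs the same ratio was 1.44 (1.01 to 1.93). Some lists of similar genes also had an excess. In ESCs the ratio was 0.47 (0.31 to 0.62) for the 1256 other single-exon protein-coding genes, whose interval touches that of the histone genes. For 11 replication-independent histone genes it was 0.13 (-0.14 to 0.41), an interval spanning 0, so no excess was detectable there. In NPCs these lists gave 0.37 (0.20 to 0.54) and 0.71 (0.30 to 1.15), the latter overlapping the histone interval. For the ΔZF1 rescue no excess over noXL was detectable over all sites of the 67 genes. Its ratio over noXL was -0.06 in ESCs (-0.47 to 0.35) and -0.16 in NPCs (-0.72 to 0.41), both intervals spanning 0. The ESC value turned to 0.40 with only sites at or above the median score of all lists, where the histone share was 0.0836% in ΔZF1 and 0.0631% without UV, and fell to -0.70 without sites near a noXL site. These comparisons share the noXL lists with those of WT.

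The direct comparison of the rescues gave fewer histone sites in ΔZF1 in both cell types. The scaled log2 ratio of ESC-ΔZF1 over ESC-WT was -0.99 (-1.29 to -0.70), a fold of 0.504. For NPC-ΔZF1 over NPC-WT it was -1.61 (-2.03 to -1.22), a fold of 0.328. Of the genes with a site in either list, 52 of 59 histone genes had the lower scaled count in ESC-ΔZF1, where 50.1% of 11225 genes did. In NPCs 51 of 59 had the lower scaled count in ΔZF1, where 54.8% of 11275 genes did. For WT over noXL, 50 of 58 histone genes had the higher scaled count in ESC-WT and 53 of 59 in NPC-WT, where 52.3% and 55.2% of genes did. Few single genes were deep enough to be read alone. At 20 or more sites in both lists together, 2 histone genes could be read for ESC-WT over noXL, 3 for ESC-ΔZF1 over WT, 11 for NPC-WT over ESC-WT and none for the 6 other comparisons.

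None of those genes passed a scaled log2 ratio of 1 or -1. Over all genes read the same way, 8.12% passed the higher and 6.6% the lower limit for ESC-WT over noXL, 6.84% and 5.45% for ESC-ΔZF1 over WT, and 11.5% and 10.4% for NPC-WT over ESC-WT. With the minimum set to 10 sites, 8 of 27 histone genes were past the lower limit in ESC-ΔZF1 over WT, against 7.37% of 7875 genes. Likewise 4 of 9 were past it in NPC-ΔZF1 over WT, against 10.7% of 7109 genes, and 1 of the 9 was past the higher limit, against 7.67%. For WT over noXL at that minimum, 3 of 25 were past the higher limit in ESCs against 9.89% of genes, and 2 of 7 in NPCs against 15.1%. The median ratio at 10 or more sites was -0.76 over the 27 histone genes and 0.04 over all genes for ESC-ΔZF1 over WT. No histone gene had more than 9 ESC-ΔZF1 or 7 NPC-ΔZF1 sites, so none met this minimum without WT sites. Genes at large were not matched to histone genes for depth. These shares and this median are therefore not read as an effect on single genes.

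**Figure D2:**
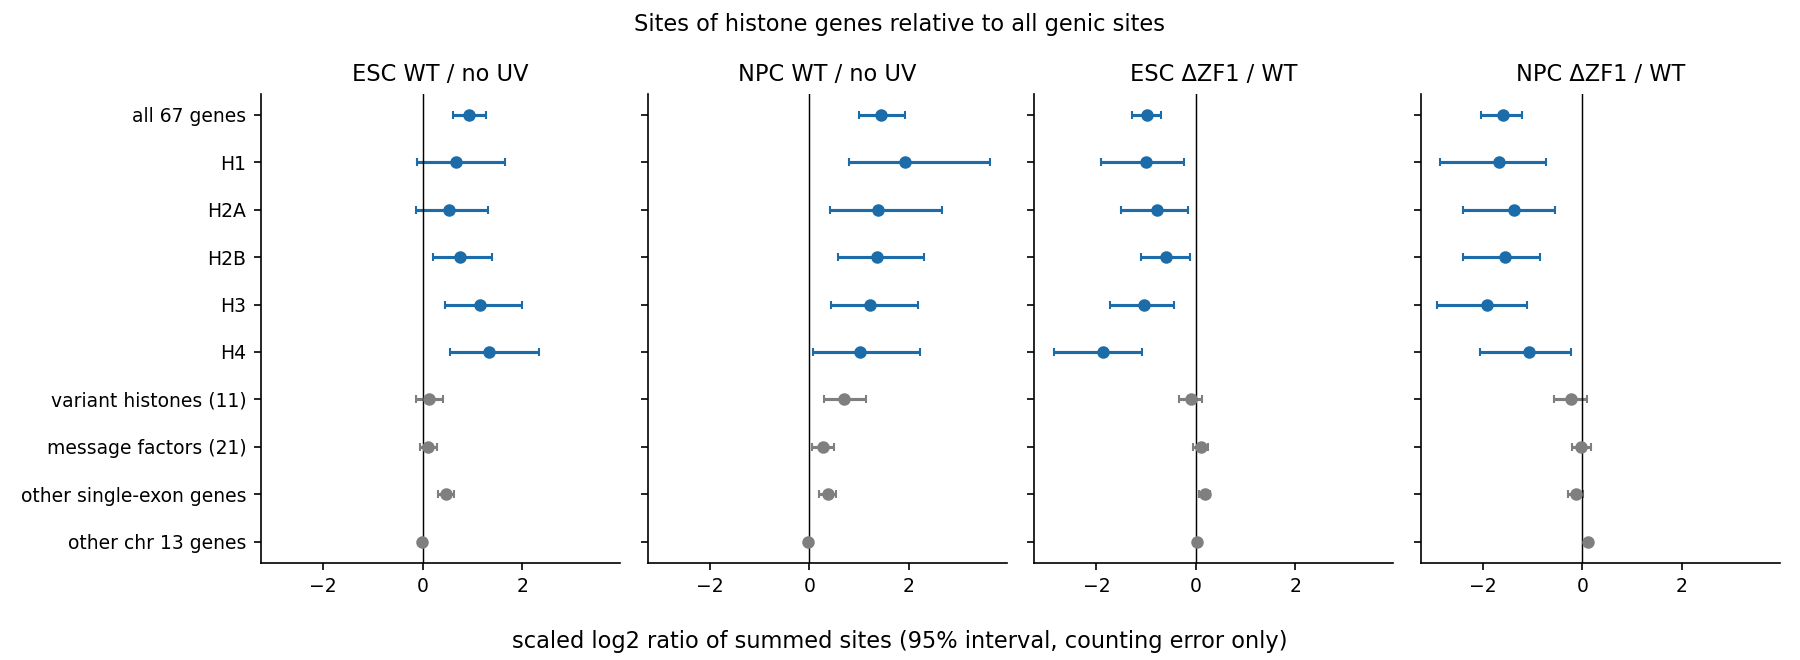
Scaled log2 ratio of summed sites (x axis, 0 is the ratio of all genic sites) for the 67 histone genes, each histone type and 4 comparison lists (rows), in 4 comparisons (panels); points are ratios and bars are 95% intervals of counting error. All 5 types lie below 0 for ΔZF1 over WT in both cell types, with -0.60 for H2B and -1.86 for H4 at the ends of the ESC range.

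All 5 types had the lower scaled count in ΔZF1. H1 proteins bind the linker DNA between nucleosomes. In ESCs the H1 genes had 58 sites for WT, 14 for ΔZF1 and 12 without UV, and in NPCs 42, 8 and 4 in the same order. The ΔZF1 over WT ratio of H1 was -0.997 in ESCs (-1.90 to -0.24) and -1.67 in NPCs (-2.87 to -0.74). H2A and H2B pair as dimers on the nucleosome. H2A genes had 77, 22 and 18 sites in ESCs and 46, 11 and 7 in NPCs, with ratios of -0.78 (-1.51 to -0.15) and -1.38 (-2.41 to -0.54). H2B genes had the most sites of any type, 133, 44 and 27 in ESCs and 74, 16 and 12 in NPCs. Their ratios were -0.60 in ESCs (-1.11 to -0.13) and -1.55 in NPCs (-2.39 to -0.85). H3 and H4 form the tetramer at the centre of the nucleosome. H3 genes had 100, 24 and 15 sites in ESCs and 67, 11 and 12 in NPCs, with ratios of -1.04 (-1.72 to -0.44) and -1.92 (-2.93 to -1.12). H4 genes had 85, 11 and 11 sites in ESCs and 40, 12 and 8 in NPCs. Their ESC ratio of -1.86 (-2.86 to -1.08) was the lowest of the 5 types and their NPC ratio of -1.07 (-2.07 to -0.23) the nearest to 0, but the intervals of all types overlapped within each cell type. Per kb of gene body, ESC-WT had 10.2 sites in H3 genes, 7.80 in H4 genes, 6.27 in H2A genes, 4.36 in H1 genes and 2.05 in H2B genes. The last pair of values follows long annotated bodies, of 7425 nt for Hist1h1d, 8710 nt for Hist1h2bc and 37455 nt for Hist1h2be, which overlaps Hist1h1e on the same strand. Without these 3 genes, left out after their values were seen, H1 genes had 7.14 and H2B genes 5.91 sites per kb.

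The 3 genes with most sites of each type are given list by list. Among H1 genes, Hist1h1d had 16 WT, 4 ΔZF1 and 4 no-UV sites in ESCs, and 14, 2 and 1 in NPCs. Hist1h1c, by the same order of lists, had 12, 5, 2, 9, 3 and 2, and Hist1h1e 15, 2, 3, 9, 2 and 0. In each of these 3 genes both WT counts were above the other 4. Hist1h1t, the testis linker histone, had 3 sites in NPC-WT and 0 in every other list.

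Among H2A genes, Hist2h2ab had 7, 5, 4, 5, 7 and 2 sites and so departed from the rest, with more sites in NPC-ΔZF1 than in NPC-WT. Hist1h2ad had 10, 4, 4, 7, 0 and 1, and Hist1h2ae 11, 2, 3, 7, 0 and 3. The latter pair had no NPC-ΔZF1 site. Among H2B genes, Hist1h2bp had 15, 9, 5, 10, 3 and 2 sites, Hist1h2be 14, 5, 5, 13, 1 and 2, and Hist1h2bm 13, 5, 1, 8, 2 and 1. Hist1h2bp was the only gene read at 20 sites with a scaled ESC-ΔZF1 over WT ratio above 0, at 0.30 (-0.92 to 1.40), beside -0.79 for Hist1h1d and -0.44 for Hist1h3f.

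Among H3 genes, Hist1h3f had 15, 5, 3, 13, 0 and 3 sites, Hist1h3b 12, 6, 2, 8, 2 and 1, and Hist1h3c 11, 2, 3, 9, 0 and 2. Among H4 genes, Hist1h4a had 11, 2, 2, 9, 0 and 0, Hist1h4c 10, 1, 1, 4, 5 and 1, and Hist1h4h 9, 2, 2, 5, 0 and 2. Hist1h4c was the second gene with more NPC-ΔZF1 than NPC-WT sites. In ESCs only Hist1h2ba (4 against 2) and Hist1h2ap (2 against 0, in a gene with no unique position) had more ΔZF1 than WT sites. No gene did so in both cell types.

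Outside the large chromosome 13 cluster, the Hist2 genes had fewer ESC-WT sites per kb (2.79) than the Hist1 genes (4.22, or 8.70 without the 3 long bodies), and the Hist3 genes had 5.43. Counting only unique positions and the sites on them, the values were 2.41, 3.50 and 2.84, so the order of Hist3 and Hist1 turned. Together the 10 Hist2 genes had 28, 10, 8, 24, 12 and 7 sites over the 6 lists in the order used above. Their ΔZF1 over WT ratio was -0.42 in ESCs (-1.53 to 0.51) and -0.36 in NPCs (-1.39 to 0.57), and both intervals spanned 0. Hist2h2ab held 5 of the 10 ESC-ΔZF1 and 7 of the 12 NPC-ΔZF1 sites. Without it, a choice made after its values were seen, the ratios were -0.896 (-2.45 to 0.26) and -1.15 (-2.71 to 0.03). The 54 Hist1 genes had ratios of -0.99 (-1.32 to -0.69) and -1.81 (-2.29 to -1.38). Besides Hist2h2ab, the Hist2 genes with WT sites were Hist2h2ac (5 in ESCs and 3 in NPCs), Hist2h3b (4 and 5), Hist2h3c2 (4 and 3), Hist2h2bb (4 and 1), Hist2h4 (3 and 2), Hist2h3c1 (1 and 4) and Hist2h2aa2 (0 and 1). Hist2h2aa1 and Hist2h2be had none. On chromosome 11, Hist3h2ba had 10, 3, 0, 1, 1 and 0 sites and Hist3h2a 5, 0, 0, 1, 0 and 0. Hist4h4 on chromosome 6 had 7, 0, 2, 2, 0 and 2.

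Between cell types, the summed WT ratio was near that of all genes. NPC-WT over ESC-WT gave 0.15 (-0.07 to 0.36), and the 11 genes read at 20 sites ran from -0.01 for Hist1h2bj to 0.80 for Hist1h2be. The lowest after Hist1h2bj were Hist1h1e at 0.22 and Hist1h2bm at 0.26, and the highest before Hist1h2be were Hist1h1d at 0.72 and Hist1h3f at 0.71. Each of those intervals spanned 0. NPC-ΔZF1 over ESC-ΔZF1 gave -0.47 (-0.93 to -0.03), which turned to 0.073 without sites near a noXL site, and NPC-noXL over ESC-noXL -0.37 (-0.91 to 0.14).

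Other gene lists did not share the size of the difference between rescues. The 11 genes listed as replication-independent histones, among them the variants H2afz, H3f3a and Cenpa and also H2afx with its stem-loop, had a summed ESC-ΔZF1 over WT ratio of -0.10 (-0.34 to 0.13) and an NPC ratio of -0.23 (-0.56 to 0.09). Of these, H2afx (in ESCs 19 WT, 2 ΔZF1 and 1 no-UV sites) and H1fx (20, 3 and 8) were past the lower limit in ESCs, at -1.76 and -1.41. H1f0 was past it in NPCs at -1.55, with 21 sites in WT and 4 in ΔZF1. Against noXL, the WT lists were past the higher limit for H2afx (1.81) and H3f3b (1.38) in ESCs and for H3f3a (1.35) and H2afz (1.07) in NPCs. NPC-ΔZF1 was also past it for H3f3a (1.37). H2afy was past the lower limit for NPCs over ESCs in all 3 kinds of list, at -1.91 in WT, -1.47 in ΔZF1 and -1.56 without UV.

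The 21 genes for histone message processing and transcription factors, such as Slbp, Npat and the Lsm11 subunit of U7, had ratios of 0.09 in ESCs (-0.05 to 0.24) and -0.02 in NPCs (-0.21 to 0.16). The single genes past a limit were Cpsf3 (-1.10) for NPC-noXL over ESC-noXL, Cstf2t (2.02) and Snrpd3 (-1.13) for ESC-WT over noXL, Snrpg (1.06) for ESC-ΔZF1 over noXL, Ncbp2 for NPC-ΔZF1 over WT (-1.48) and over ESC-ΔZF1 (-1.26), and Snrpd3 (1.01) for NPC-WT over ESC-WT. The 1256 other single-exon protein-coding genes had 1614 sites in ESC-WT and ratios of 0.18 in ESCs (0.06 to 0.29) and -0.14 in NPCs (-0.28 to 0.00). The 784 other protein-coding genes of chromosome 13 had ratios of 0.02 (-0.03 to 0.06) and 0.12 (0.06 to 0.17). For ΔZF1 over WT, the interval of each of these 4 lists lay wholly above that of the 67 histone genes in the same cell type.

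Along the message, WT sites lay in 5′ leaders, in coding sequence and between the stop codon and the stem-loop. Across the 63 messages with a stem-loop, ESC-WT had 67 sites in 5′ leaders (15.5 per kb), 284 in coding sequence (11.2 per kb) and 50 between the stop codon and the stem-loop (24.4 per kb). Of the 4317 nt of annotated leader, 1828 belong to Hist1h1d alone, and some messages have no annotated leader. The leader density therefore depends on the annotation. The stem-loop and the 5 nt behind it held 0 sites in all 6 lists. A read runs from the crosslinked base toward the 3′ end and the mature message ends just behind the stem-loop, so little sequence is left to map there, and the 0 is not read as an absence of contact.

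**Figure D3:**
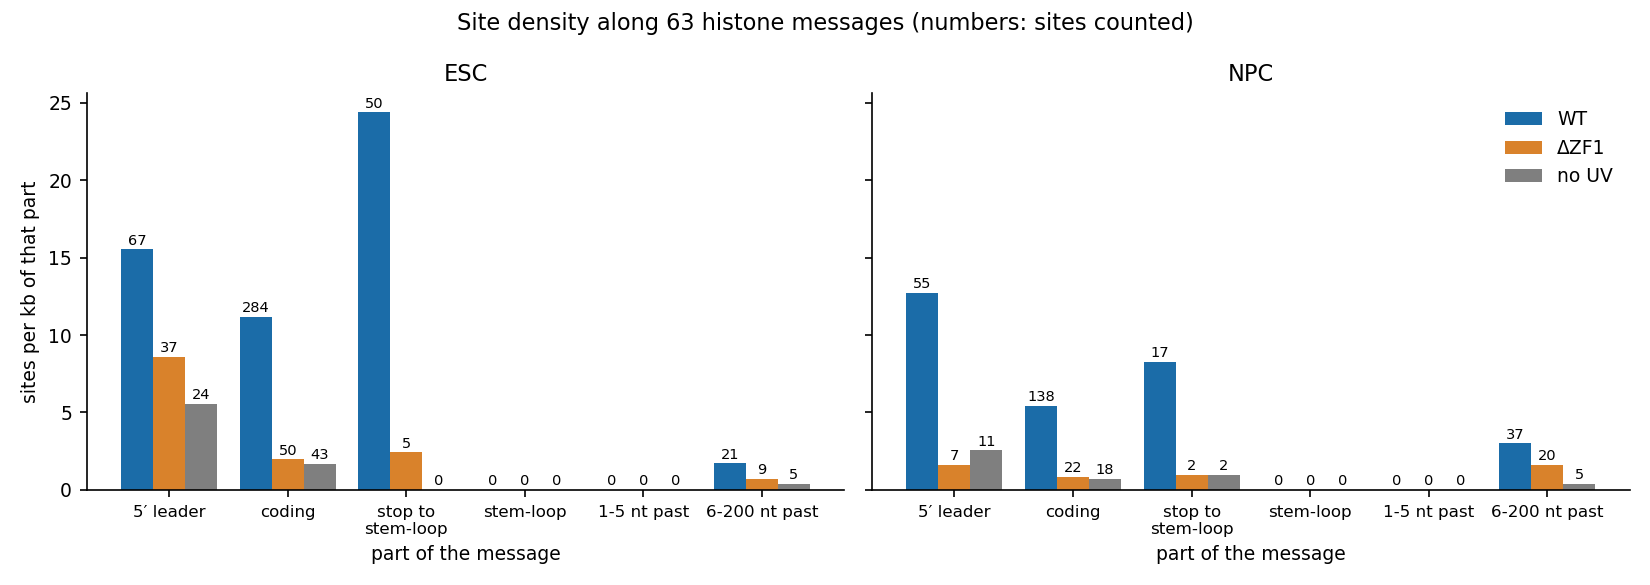
Sites per kb (y axis) in 6 parts of 63 histone messages (x axis) for WT, ΔZF1 and no-UV lists in ESCs and NPCs; the number over each bar is the count of sites, and lists are not scaled to depth. The WT bar between stop codon and stem-loop reaches 24.4 per kb in ESCs, beside 2.44 in ΔZF1 and 0 without UV.

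The difference between rescues was not equal along the message in ESCs. In coding sequence ESC-ΔZF1 had 50 sites and ESC-noXL 43, a scaled ΔZF1 over WT ratio of -1.50 (-1.96 to -1.10). Between stop codon and stem-loop they had 5 and 0, a ratio of -2.11 (-3.63 to -1.06). In 5′ leaders they had 37 and 24, and the ratio was 0.14 (-0.45 to 0.70). The leader thus held 16.7% of the message sites in ESC-WT (13.4% to 20.7%), 40.2% in ESC-ΔZF1 (30.8% to 50.4%) and 35.8% in ESC-noXL (25.4% to 47.8%). ESC-WT over noXL was 1.19 (0.75 to 1.68) in coding sequence and -0.06 (-0.69 to 0.64) in leaders. Between stop codon and stem-loop noXL had 0 sites. With noXL set to 3 sites over the region, ESC-WT was 5.86-fold higher after scaling. With the 0 kept, the interval of the ratio began lower, at 2.19 on the log2 scale, so 5.86 is not a lower bound.

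NPC leaders did not follow the ESC pattern, since there WT lay above the other lists after scaling too. NPC-WT had 55 leader sites, 138 coding sites and 17 between stop codon and stem-loop. NPC-ΔZF1 had 7, 22 and 2, and NPC-noXL 11, 18 and 2. The NPC-ΔZF1 over WT ratio was -2.22 in leaders (-3.49 to -1.28), -2.01 in coding sequence (-2.71 to -1.42) and -1.998 between stop codon and stem-loop (-4.46 to -0.54). NPC-WT over noXL was 1.05 in leaders (0.23 to 2.07), 1.70 in coding sequence (1.06 to 2.47) and 1.41 between stop codon and stem-loop (-0.05 to 3.87, spanning 0).

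**Figure D4:**
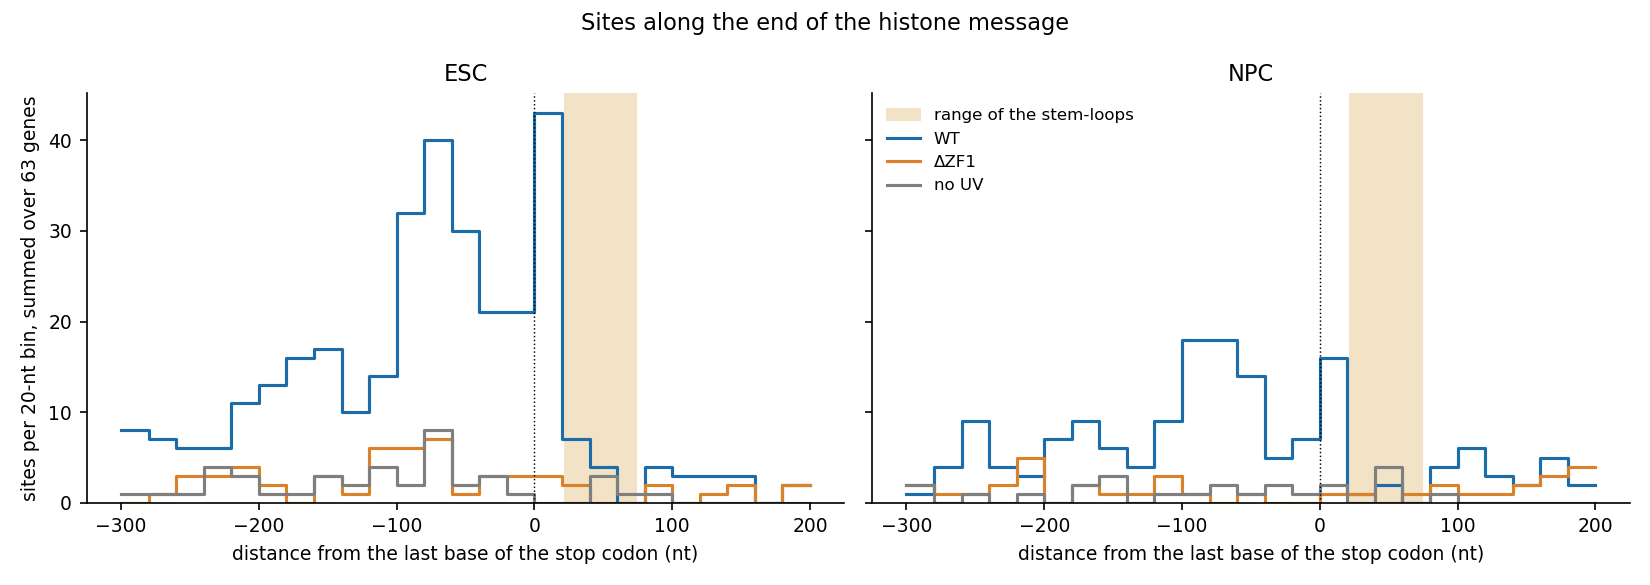
Sites per 20-nt bin (y axis, summed over 63 genes) by distance from the last base of the stop codon (x axis, negative is coding) for WT, ΔZF1 and no-UV lists; the shaded band spans all stem-loop positions, which differ between genes. ESC-WT holds 43 sites in the first 20 nt after the stop codon and 40 in the bin from 80 to 60 nt before it.

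Coding sites of the WT lists gathered toward the stop codon. With each coding sequence cut into 4 equal parts, ESC-WT had 28, 46, 69 and 141 sites from first to last. The last part held 49.6% of coding sites in ESC-WT (43.9% to 55.4%) and 42.0% in NPC-WT (34.1% to 50.4%). It held 40.0% in ESC-ΔZF1 (27.6% to 53.8%), 37.2% in ESC-noXL (24.4% to 52.1%) and 33.3% in NPC-noXL (16.3% to 56.3%), and both noXL intervals include the 25% of an even spread. The ESC-ΔZF1 interval lay above that 25%. It and both noXL intervals overlapped the WT interval of the same cell type. In NPC-ΔZF1 the last part held 2 of 22. Unique sequence was also unevenly placed, with 40.9%, 23.4%, 25.2% and 48.2% of positions unique in the 4 parts. Uridine content was level, from 11.9% to 15.0% of bases.

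Paralogous genes were called at the same coding base. Genes of 1 type were lined up by the coding position counted from the A of the start codon, using those with the most frequent coding length. In ESC-WT, 42 of 83 coding sites of 15 H2B genes lay at positions called in 2 or more of them, as did 47 of 73 in 11 H3 genes, 30 of 53 in 13 H4 genes and 15 of 37 in 15 H2A genes. Selected shared positions are printed with 12 nt on each side, 5′ to 3′ on the message strand from mm10, with the called base in capitals. They were picked for a high count of genes (H2B and H3) or for unique following sequence in genes that share the position (H4).

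At H4 position 292 (codon 98, 20 nt before the last base of the stop codon) ESC-WT had a site in 4 of 13 genes, and the following 31 bases were unique in each of those 4.
Hist1h4c (chr13:23698146-23698170, minus strand): cagggccgcactCtctacggattcg
Hist1h4f (chr13:23551340-23551364, minus strand): cagggccgcaccCtctacggattcg
Hist1h4h (chr13:23531394-23531418, plus strand): cagggccgcaccCtctacggattcg
Hist1h4i (chr13:22041020-22041044, minus strand): cagggccgtactCtgtacgggttcg
Hist1h4c was called at this cytidine in ESC-ΔZF1 and NPC-WT as well, and neither noXL list had a site there. At H4 position 217, genes of different chromosomes were both called in ESC-WT with unique following sequence.
Hist2h4 (chr3:96263076-96263100, minus strand): gacgcagtcaccTacaccgagcacg
Hist4h4 (chr6:136804151-136804175, minus strand): gacgccgtcaccTacaccgagcacg

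At H2B position 320 (codon 107) ESC-WT had a site in 8 of 15 genes, NPC-WT in 2 and ESC-noXL in 1 (Hist1h2bp). All but 1 of these share the printed 25 nt, and the 31 bases that follow occur 6 or 9 times in the genome, so the sequence does not tell these calls apart. The remaining one was Hist2h2bb, with unique following sequence.
Hist1h2bj (chr13:22043537-22043561, plus strand): tgcccggggagcTggccaagcacgc
Hist2h2bb (chr3:96270059-96270083, plus strand): tgccgggagagtTggctaaacacgc
At H3 position 315 a site was called in 7 of 11 genes in ESC-WT, 6 in NPC-WT, 3 in ESC-ΔZF1 and 0 in NPC-ΔZF1 and both noXL lists. Only Hist1h3d had unique following sequence. The Hist2 copies have a cytidine at this base and no site in any list.
Hist1h3b (chr13:23752682-23752706, plus strand): tgtgggtctgttTgaggacaccaac
Hist1h3d (chr13:23576104-23576128, plus strand): cgtgggtctgttTgaggacaccaac
Hist2h3b (chr3:96268996-96269020, plus strand): ggtggggctgttCgaggacaccaac
At H3 position 340 the called base was a cytidine in all 11 genes, and 7 had a site in ESC-WT, 5 in NPC-WT and none in the other 4 lists. No gene had unique following sequence there, so how many separate contacts these calls stand for is not known.

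Many of the histone sites with the highest scores lay in 5′ leaders or near message starts, and several were also called without UV. One that did not was a coding uridine of Hist1h1b, 572 nt from the gene start, with a score of 63.9 in NPC-ΔZF1. PureCLIP's score rises with the evidence for a site, and the highest score in any list was 708. Scores are not scaled to depth, so their differences between lists are not read as differences in contact. Hist1h2bc was called 3 nt from its annotated start, with ESC scores of 361 for WT, 244.5 for ΔZF1 and 210.1 without UV, and NPC scores of 331 for WT and 105.3 without UV. Hist1h4h was called 35 nt from its start with scores of 259, 247, 203, 308 and 8.54, in that order of lists. Hist1h3c had its highest score in ESC-noXL, 246, beside 212 in ESC-WT. None of the 3 was called in NPC-ΔZF1. All have unique following sequence and are printed with the called base in capitals.
Hist1h2bc (chr13:23684189-23684213, plus strand): gttcccagcccaCactgaggttcct
Hist1h4h (chr13:23531072-23531096, plus strand): gtgccttccactCtgttgaggtttt
Hist1h3c (chr13:23745510-23745534, minus strand): tctttcgtcctgCacttttgtgtat
Hist1h2bk, called at a leader uridine (chr13:22035866-22035890, plus strand), had WT scores of 189 in ESCs and 209 in NPCs, ΔZF1 scores of 0.267 and 132, and no noXL call.
Hist1h2bk: ttttctattcatTtctacgccatgc

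Sites close to message starts made up a larger share in histone genes than in others, which have longer bodies. The median histone gene body is 539 nt, so a window of fixed length takes more of it, and the share is not read as a preference. Within 40 nt of an annotated transcript start lay 41 of 453 ESC-WT sites (9.05%, interval 6.74% to 12.1%), 17 of 115 ESC-ΔZF1 sites (14.8%, 9.44% to 22.4%) and 13 of 83 without UV (15.7%, 9.39% to 25.0%). In NPCs it was 35 of 269 WT, 5 of 58 ΔZF1 and 7 of 43 no-UV sites. For other genic sites the share lay between 2.01% and 4.32% in all 6 lists. With the sites near starts left out, ESC-ΔZF1 over WT was -1.08 (-1.41 to -0.78) and ESC-WT over noXL 1.03 (0.68 to 1.41). Near starts the ESC ratios were -0.24 (-1.10 to 0.51) and 0.08 (-0.74 to 1.04). In NPCs the ratios near starts lay off 0, at -1.998 (-3.53 to -0.91) for ΔZF1 over WT and 0.996 (0.00717 to 2.29) for WT over noXL.

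**Figure D5:**
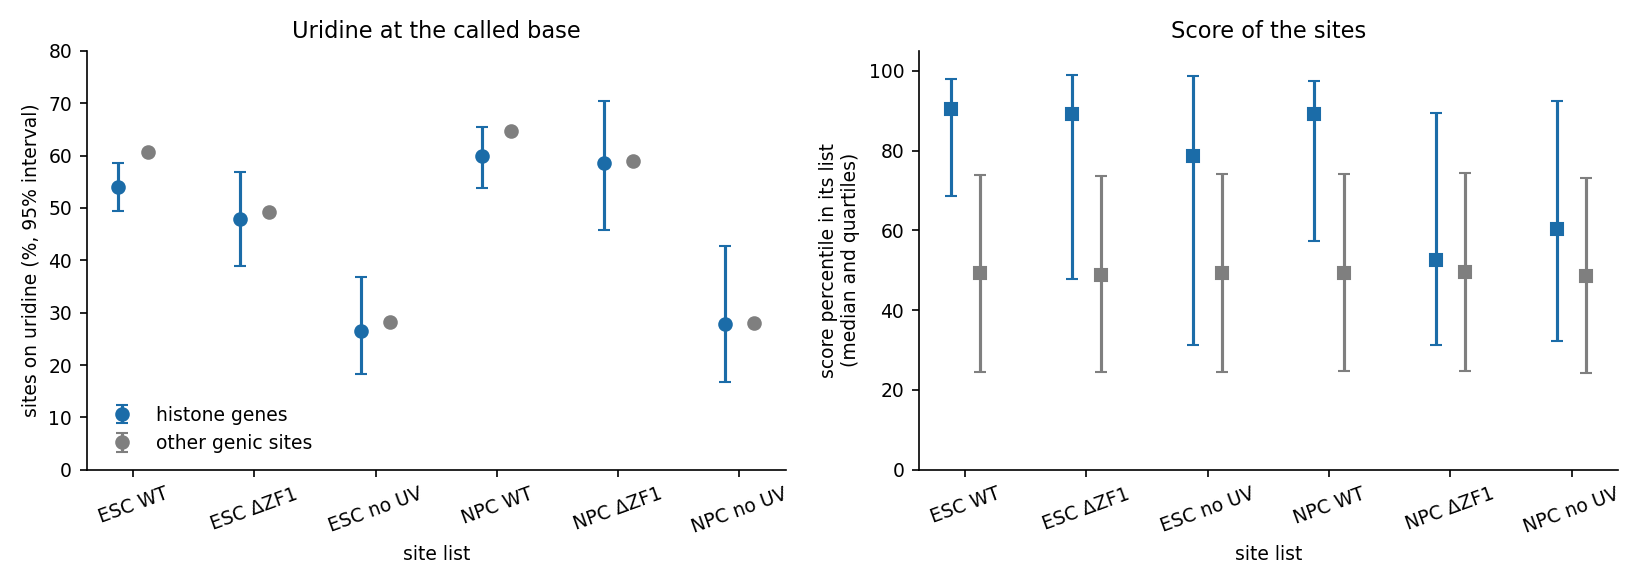
Left, share of sites on uridine (%, bars are 95% Wilson intervals); right, score percentile of sites within their whole list (squares are medians, bars the lower and upper quartile), for histone genes and other genic sites in the 6 lists (x axis). The histone uridine share is 26.5% and 27.9% in the noXL lists and at least 47.8% in the others, and the median score percentile is 90.5 in ESC-WT and 52.55 in NPC-ΔZF1.

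Uridine is the base that UV light at 254 nm crosslinks most readily. It was the called base at 54.1% of ESC-WT histone sites (49.5% to 58.6%), 47.8% of those with ΔZF1 (38.9% to 56.9%) and 26.5% of those without UV (18.2% to 36.9%). In NPCs the shares were 59.9% in WT (53.9% to 65.5%), 58.6% in ΔZF1 (45.8% to 70.4%) and 27.9% in noXL (16.8% to 42.7%). In both cell types the WT and the ΔZF1 shares lay above those of noXL with no overlap of intervals, and the ΔZF1 and WT intervals overlapped. Among other genic sites the WT share was 60.7% in ESCs, above the histone interval, and 64.6% in NPCs, within it. With only sites followed by 31 unique bases, the histone shares were 60.1% and 64.9% and those of other genic sites 60.6% and 64.5%, both within the histone intervals (54.1% to 65.8% and 57.3% to 71.7%). Within histone coding sequence only 13.3% of bases are uridines, yet 47.9% of ESC-WT coding sites (42.1% to 53.7%) and 55.1% of NPC-WT coding sites (46.8% to 63.1%) fell on them. ESC-noXL had 7 of 43 coding sites on uridine (16.3%, 8.12% to 30.0%). Cytidine took 32.4% of ESC-WT coding sites.

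The median histone site scored above the middle of its list, but in NPC-ΔZF1 it lay close to the middle. In ESCs the median score percentile within the list was 90.5 for WT, 89.0 for ΔZF1 and 78.8 without UV, and it was 89.1 in NPC-WT. It was 60.25 in NPC-noXL and 52.55 in NPC-ΔZF1, where the quartiles were 31.2 and 89.4. Other genic sites had medians from 48.5 to 49.6. Sites in the top 10% of their list by score made up 51.0% of ESC-WT histone sites (46.4% to 55.6%), 47.8% of ESC-ΔZF1 ones (38.9% to 56.9%), 49.1% in NPC-WT (43.2% to 55.0%) and 24.1% in NPC-ΔZF1 (15.0% to 36.5%). Of the NPC-ΔZF1 histone sites, 6.90% had another site of the list within 8 nt, against 49.1% in NPC-WT and 60.9% in ESC-ΔZF1. Other genic sites of these lists gave 10.1%, 27.5% and 19.5%. Without UV, histone sites gave 38.55% in ESCs and 20.9% in NPCs, and other genic sites 9.97% and 6.73%. Only in NPC-ΔZF1 did the histone share lie below that of other genic sites, and the reason was not tested.

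Histone sites recurred between lists more often than other genic sites. Of the 115 ESC-ΔZF1 sites, 76.5% (68.0% to 83.3%) had an ESC-WT site within 5 nt on the strand, against 24.2% of other genic sites, and 41.7% (33.1% to 50.9%) had an ESC-noXL site, against 8.67%. Of the 453 ESC-WT sites, 17.2% (14.0% to 20.97%) were near an ESC-noXL site, against 7.66%. Of the 269 NPC-WT sites, 69.1% (63.4% to 74.4%) were near an ESC-WT site, against 28.1%. NPC-ΔZF1 differed, with 31.03% (20.6% to 43.8%) near an NPC-WT site and 10.3% (4.83% to 20.8%) near an NPC-noXL site, against 13.1% and 3.83%. Shifting the sites by 500 or 1000 nt left at most 1.16% of histone sites near another list's site, but such a shift leaves these short genes. Shares of this kind also follow how densely a gene is called, which was not matched here.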

How the data were processed

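Flexbar, STAR (to mm10), UMI-tools and bedtools were the tools with which the authors trimmed, aligned and deduplicated the iCLIP2 reads; libraries of a group were then merged and PureCLIP called crosslinked bases. Reads were single-end and longer than the stretch used below to judge uniqueness. Tool versions and the handling of reads that fit several places are not given in the sources used here. The deposited value of each 1-nt site is a PureCLIP score. Groups followed the labels. Sites were counted on a gene's strand within its GENCODE M21 body with Python 3.11.15, numpy 2.4.6, pandas 2.3.3, scipy 1.17.1 and pysam 0.24.0; figures used matplotlib 3.10.9.

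Ratios added 1 to both counts and were divided by the ratio of all sites in annotated genes. A gene was read singly from 20 sites over the 2 lists, against limits of 1 and -1 (log2). Intervals are at 95%. Message regions included positions past an annotated end, up to 200 nt beyond the stem-loop. Sequence came from the NCBI GRCm38 reference, and a position was unique where the 31 bases after it occurred once there. No site was counted in 2 of the genes. The functions were tested on simulated lists. Named were the 3 genes of each type with most UV sites, the 3 highest and 3 lowest ratios of each comparison among genes read singly, all genes outside chromosome 13, and genes of the 2 comparison lists past a limit. Other named genes (such as Hist1h2bc, Hist1h2bk, Hist1h1t, Hist1h2ba and those of printed windows) were chosen after their values were seen. The genes and lists were chosen with earlier results of these data known. Alternatives changed the score minimum, scaling, pseudocount, distance, and which sites and genes were counted.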

Additional observations from a re-analysis of the deposited data

Results flagged for a closer look

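From 6 to 200 nt past the stem-loop, NPC-WT had 37 sites over the 63 genes (3.01 per kb), against 5 in its no-UV control (0.407 per kb). Messages cut at the stem-loop end before this stretch, but the annotated messages of 17 genes run past all of it. Of the 37 sites, 16 lay outside the annotated gene bodies. These positions enter no comparison above as a region, and the lists are not scaled to depth here. The ΔZF1 rescue had 20 there in NPCs and 9 in ESCs, and the remaining ESC lists had 21 (WT) and 5 (no UV).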

How the results depend on the processing

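No paired analysis was possible because the authors called sites on merged libraries, with 1 list per group, and for the same reason no replicate was left out. Depth, clone and cell cycle stage cannot be told apart from the rescue with 1 list per group, and ΔZF1 has no control of its own. Of the main results, 162 values moved by less than their own interval under an alternative, 36 moved by more, and the cause of each move was not tested. One ratio whose interval lay on one side of 0 changed sign (NPC over ESC in ΔZF1). Ratios whose interval spanned 0 also changed sign, namely NPC over ESC in WT and both ΔZF1 over noXL ratios without scaling, and ESC-ΔZF1 over noXL at the score minimum and, at 0.002, on single-exon messages alone.

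The histone share of genic sites, with only sites at or above the median score of all lists (3.02), was 0.197% for WT and 0.0836% for ΔZF1 in ESCs, and 0.206% for NPC-WT. With only sites followed by 31 unique bases it was 0.0659%, 0.0359% and 0.0378% for the ESC lists of WT, ΔZF1 and noXL, and 0.0752%, 0.02855% and 0.0308% for those of NPCs. Without chromosome 11 it was 0.117% in ESC-WT. The uridine share in ESC-WT was 60.1% at unique sites and 59.7% without sites near a noXL site, and 58.2% in ESC-ΔZF1 under the latter.

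Summed log2 ratios without scaling were 2.43 and 2.62 for WT over noXL in ESCs and NPCs, 0.47 and 0.42 for ΔZF1 over noXL, -1.97 and -2.19 for ΔZF1 over WT, and -0.75, -0.975 and -0.93 for NPC over ESC in WT, ΔZF1 and noXL. At the score minimum, WT over noXL was 1.62 and 2.07, ESC-ΔZF1 over noXL 0.40, NPC-ΔZF1 over WT -2.27 and NPC over ESC in ΔZF1 -0.976. Without sites near a noXL site, ESC-ΔZF1 over noXL was -0.70, ESC-ΔZF1 over WT -1.47, and NPC over ESC in ΔZF1 turned to 0.073. Chosen after seeing the data, the restriction to sites within 40 nt of a transcript start gave 0.0764 for WT over noXL in ESCs and 0.996 in NPCs, -0.24 for ESC-ΔZF1 over WT, -1.002 for NPC-ΔZF1 over noXL, and 0.68 and -1.08 for NPC over ESC in WT and ΔZF1. Without scaling, 2 of 2 genes read singly were past the higher limit for ESC-WT over noXL and 2 of 3 past the lower for ESC-ΔZF1 over WT, where 82.8% and 47.1% of all genes read singly were. No histone gene reached a minimum of 50 sites.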
